A study of Scomber scombrus with 32 samples.

Results

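The gene set described here holds the 100 genes whose transcripts stood highest, in both stages of the mackerel muscle line Mack1, when confluent cells were fed a low-serum medium. Genes with a mean of at least 100 deposited normalised counts in serum reduction at both stages were ranked by the smallest of 6 log2 ratios, each the serum reduction mean plus 1 over the mean plus 1 of another state of the same stage, and the top 100 were taken. They are 100 of the 24189 genes in the table, of which 10496 met the minimum mean. Since they were selected on these measured counts, every statement on serum reduction against another state in these genes describes the choice and carries no test.

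RNA of continuous skeletal muscle cell lines of the Atlantic mackerel was sequenced in 32 libraries. Mack1 gave 8 groups of 3 libraries, at p27 (labelled as before immortalization) and at p77 (after it), each in 4 states. Mack2 gave 2 groups of 4 proliferating libraries, p2 (before) and p180 (after). Proliferating cells were grown in L-15 medium with 20% fetal bovine serum and FGF2 at 1 ng/mL. Serum starvation means confluent cells that were no longer fed. Serum reduction means confluent cells fed regularly with L-15 holding 2.5% serum, with no growth factor listed. Lipid loading means confluent cells fed the growth medium with insulin at 10 µg/mL, IBMX at 0.5 mM, dexamethasone at 0.25 µM and a lipid mixture at 10 µL/mL. No genetic change or transgene is listed for any group. How long cells spent in each medium is not stated. The labels call the libraries of a group experimental replicates, so p-values measure only the spread between these libraries, which may be technical.

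When muscle precursors stop dividing and fuse into fibres, they build sarcomeres, in which thin filaments anchored at the Z disc slide past thick filaments tied together at the M band. Myosin and many other proteins of this machine need chaperones to fold, among them UNC-45 and the methyltransferase SMYD1, which work with heat shock proteins. Fast fibres also draw energy from glycogen through glycolysis, whose pace phosphofructokinase sets.

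Library totals ran from 16.9 to 32.01 M counts (M, 1e6). Values below are deposited normalised counts, in the order of replicates 1 to 3, or 1 to 4 for Mack2. The muscle lineage was plain in the serum reduction libraries: desmin (desma) stood at 78700 to 104000 at p27 and 149000 to 154000 at p77, and myogenin (myog), which starts terminal differentiation, at 4530 to 4810 and 5080 to 5330. Myogenin stood higher in the p27 starvation libraries, at 9020 to 9300, while in p77 starvation it ran from 3970 to 8760, with 1 library below those of serum reduction. The stem cell gene pax7a was between 5.96 and 12.7 in p27 serum reduction and at 0 in all p77 serum reduction libraries, and myf6 was at 0 in both. In these bulk samples, fewer cells of a type and less RNA per cell cannot be told apart.

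Together the 100 genes held 3.932, 4.677 and 5.237% of all counts in the p27 serum reduction libraries and 7.025, 6.672 and 6.782% in those of p77. In serum starvation they held 1.122 to 1.545% at p27 and 2.528 to 3.322% at p77, in lipid loading 0.5 to 0.622% and 1.9 to 2.163%, and in proliferation 0.086 to 0.093% over both stages. No library of another state reached the lowest serum reduction library of its stage. A large part of this rested on LOC133982361, LOC133977916 and LOC134002507, which held 56.3% of the set's counts in p27 serum reduction and 65.1% in p77. The reference table gives a symbol for 60 of the 100 and a locus number alone for 40. It lists 99 as protein-coding and 1 as a long non-coding RNA.

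**Figure D1:**
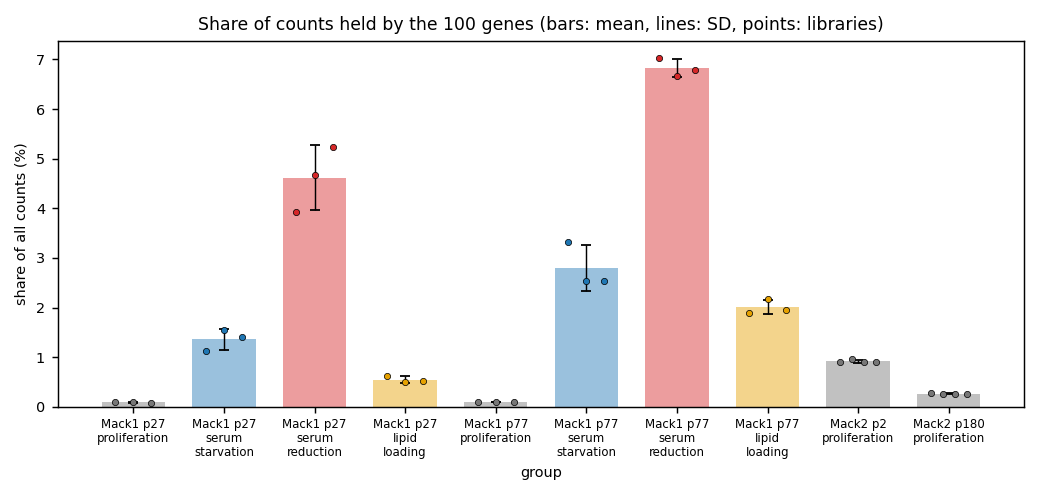
Share of all counts (%) held by the 100 genes in each group, with bars for the mean, lines for the SD and points for single libraries (3 per Mack1 group, 4 per Mack2 group). Serum reduction stands highest at both Mack1 stages, since the genes were chosen for it, and proliferating Mack1 lies near 0.09%.

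Serum starvation, the other muscle differentiation state, was the next highest state for 75 genes at p27 and 65 at p77. Lipid loading took that place for 21 and 31 genes, and proliferation for 4 at each stage. Proliferation was the lowest state for 90 genes at p27 and 93 at p77. Over the 100 genes the median log2 ratio of serum reduction was 6.84 over proliferation, 1.95 over starvation and 3.09 over lipid loading at p27, and 7.77, 1.63 and 2.16 at p77. The comparison with starvation set the rank of 25 genes through p27 and of 46 through p77. In all 100 genes every serum reduction library of both stages stood above every other library of its stage, which held for 6.51% of the genes that met the minimum, and nothing is read from that count. At the edge of the choice the lowest ratio was 1.0844 for dgkaa, 1.0832 for LOC133987429, 1.0770 for uckl1a, 1.0766 for zfand2a and 1.0761 for myom1a inside, and 1.0750 for mylipa, 1.0733 for aldh1l1, 1.0526 for LOC133985204, 1.0478 for svilc and 1.0451 for ampd1 outside, so the border is not a gap.

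**Figure D2:**
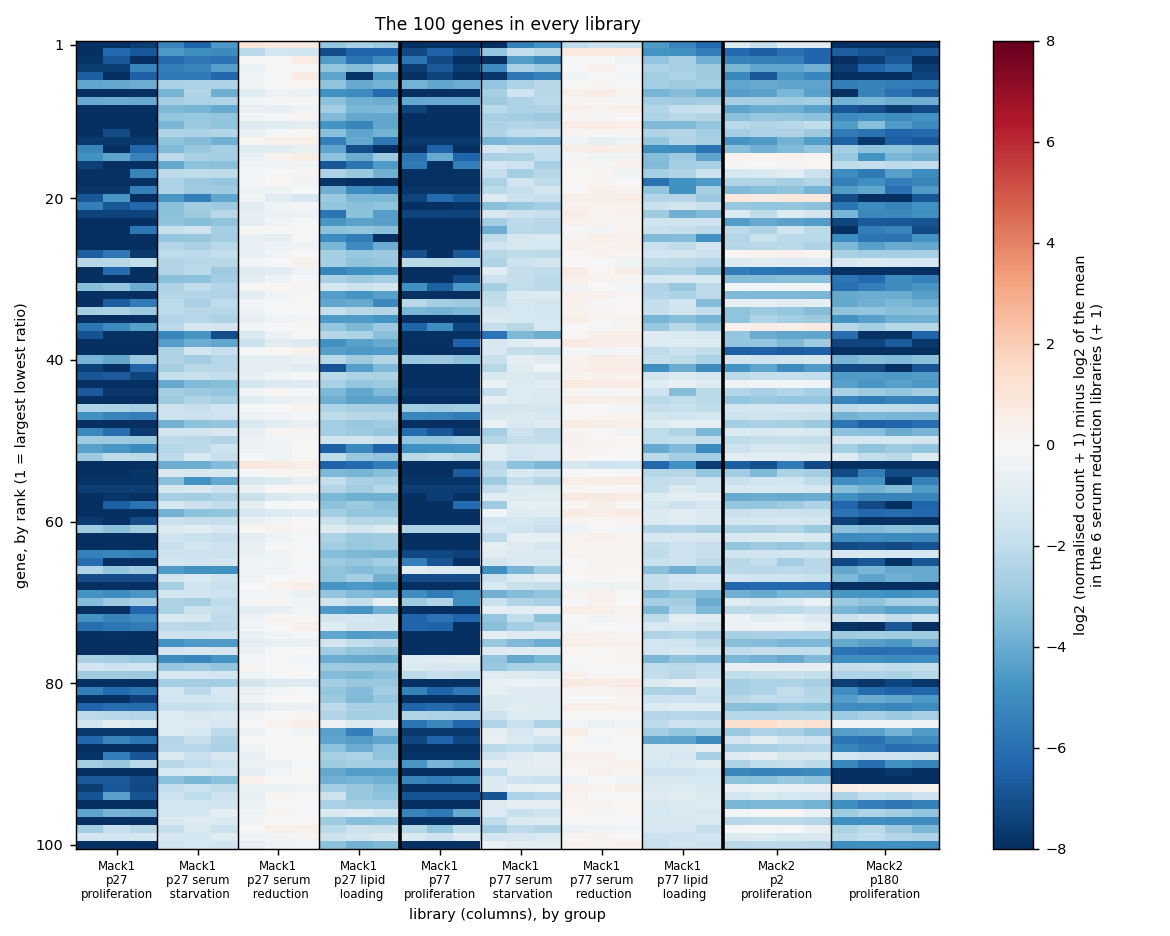
Each row is 1 of the 100 genes by rank and each column 1 library, coloured by log2 of the normalised count plus 1 minus log2 of the mean plus 1 in the 6 serum reduction libraries, with the scale ending at −8 and 8. Proliferating Mack1 columns are the darkest blue at both stages, while a few rows, among them ranks 66, 77 and 78, are darker in serum starvation than in proliferation.

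The gene of rank 1 was prss35, a member of the serine protease family. It stood at 2258, 1791 and 1820 in p27 serum reduction and at 285, 361 and 354 in p77 serum reduction. At p27 it was at 28, 13.2 and 47.4 in starvation, 134, 187 and 154 in lipid loading and 3.78, 0 and 5 in proliferation, and its smallest log2 ratio was 3.42, over lipid loading at p77. Its neighbour in the genome with no gene between, me1, the malic enzyme that supplies NADPH for lipid synthesis, is also in the set, at 848, 905 and 909 in p27 serum reduction against 145, 203 and 155 in starvation.

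Of the 12 genes at the top, 8 carry a locus number alone and get no role here. LOC133999614 stood at 786, 1200 and 1169 in p27 serum reduction against 140, 112 and 102 in starvation, and at 5899, 6061 and 5640 in p77 serum reduction against 410, 884 and 728. LOC134000450 stood at 603, 593 and 973 in p27 serum reduction, and LOC134001096, which lies next to it, at 378, 411 and 727. In p27 starvation they were at 8.01 to 11.1 and at 4.83 to 8.09. The last replicate is thus the highest of the p27 serum reduction libraries for both neighbours, and no p27 library of another state reached 30 in either.

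Some neighbours in the set had closely similar values. LOC133999055 stood at 22143, 27745 and 31491 in p27 serum reduction and LOC133999054, with 3 genes between them, at 22156, 27317 and 31603. In p27 starvation they were at 4613, 4945 and 5070 and at 4551, 5012 and 5383, and their Mack2 p180 values differed, 587 to 690 against 1907 to 2280. In all, 13 pairs of members lie within 5 genes of each other in the reference order and 9 of them have no gene between. These include the run LOC133981811, LOC133982363 and LOC133982361 and the pair LOC134002507 and LOC134002623. The sources do not state how reads that fit several genes were counted, so genes with a near-identical copy may share reads and their values are uncertain. The libraries were not strand-specific, so reads within the short stretch where the members mllt11 and LOC133996310 overlap cannot be told apart. The other members of the top 12 are LOC134006114, LOC133987799, LOC133978500, zgc:113276, hspa1b and mlf1, with smallest ratios from 2.19 to 2.77.

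**Figure D3:**
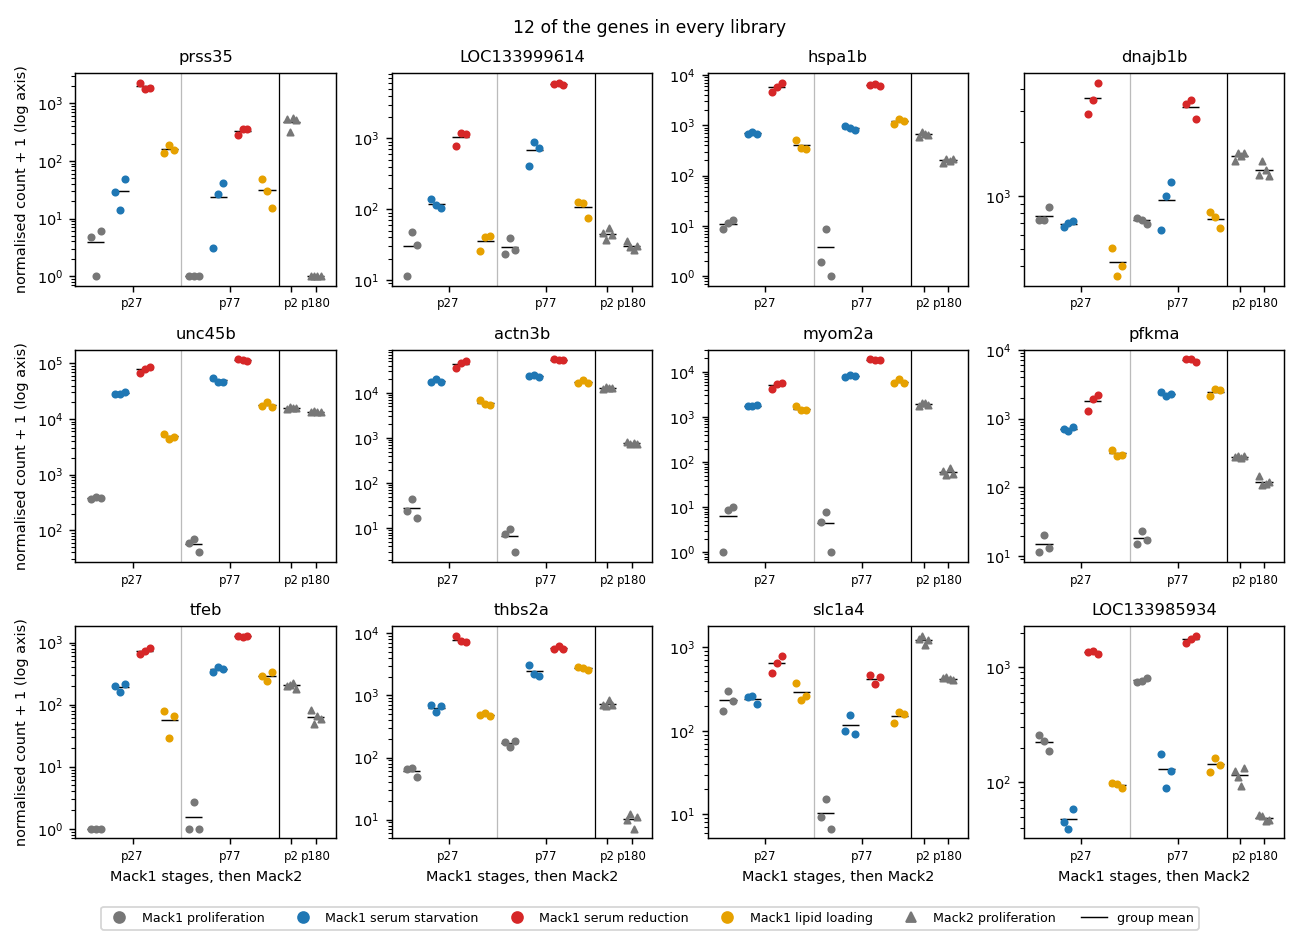
Normalised count plus 1 (log axis) of 12 genes in every library, by stage and state, with a bar for the group mean, circles for Mack1 and triangles for Mack2. Serum reduction (red) is the top Mack1 group in each panel. The sarcomere genes actn3b and myom2a are lowest in proliferating Mack1, and LOC133985934 is lower in Mack1 starvation than in Mack1 proliferation of the same stage.

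Members of the sarcomere came from the M band, the thin filament and the Z disc. The M-band cross-linker myom2a stood at 4228, 5396 and 5627 in p27 serum reduction, against 1787, 1758 and 1814 in starvation, 1753, 1424 and 1409 in lipid loading and 0, 7.73 and 9 in proliferation. At p77 it stood at 19096, 17910 and 18318 in serum reduction and 7896, 8440 and 8042 in starvation. Its relative myom1a stood at 9584, 11814 and 13222 at p27 and 19663, 18616 and 19099 at p77. The fast-fibre alpha-actinin actn3b, which anchors thin filaments at the Z disc, was at 35870, 44970 and 50879 in p27 serum reduction and 17340, 19963 and 17594 in starvation. Groups did not overlap for these genes, and the first p27 serum reduction library was the lowest of its group in each.

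The calcium sensor of fast thin filaments, tnnc2.2, stood at 17295, 24199 and 28285 in p27 serum reduction against 10252, 9242 and 8765 in starvation. Synpo2la, a Z-disc actin-binding gene, had a different order of states: it stood at 110, 175 and 223 in p27 serum reduction, 49.7, 41.1 and 22.9 in lipid loading and 5.6, 8.09 and 0.804 in starvation. Lipid loading lay above starvation at p77 too, with 119, 106 and 89.3 against 3.11, 18.8 and 15.4. Xirp2a, whose Xin repeats bind actin, had the reverse order, with 6136, 7628 and 8322 in p27 serum reduction, 1941, 2026 and 1710 in starvation and 427, 417 and 358 in lipid loading. The remaining members of this list were pdlim5a, a Z-disc adaptor, and tnni3k, a kinase named for binding troponin I, with log2 ratios over starvation of 1.39 and 2.85 at p27 and 1.1 and 1.46 at p77. Casq1b, the calsequestrin that stores calcium in the sarcoplasmic reticulum, stood at 2762, 3464 and 3574 in p27 serum reduction and 1426, 1449 and 1475 in starvation.

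Energy genes of the set included both muscle phosphofructokinase genes. Pfkma stood at 1303, 1919 and 2192 in p27 serum reduction and 709, 654 and 754 in starvation, and at 7303, 7250 and 6668 against 2457, 2161 and 2278 at p77. Pfkmb stood at 528, 672 and 674 against 34.4, 41.5 and 42.6 at p27, and at 349, 255 and 214 in lipid loading. The log2 ratio over starvation was thus 1.35 for pfkma and 3.95 for pfkmb, while that over lipid loading was 2.53 and 1.19, so the state next below serum reduction at p27 was starvation for pfkma and lipid loading for pfkmb. At p77 it was lipid loading for both. Stbd1, which binds glycogen, stood at 1185, 1554 and 1650 in p27 serum reduction and had no count in any proliferating Mack1 library. Adss1, the muscle enzyme of the purine nucleotide cycle, stood at 2184, 2706 and 3120.

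Chaperones made up 5 listed members, and 3 further symbols of the same kind, noticed after the values were seen, were dnaja, hspbp1 and zfand2a. The inducible heat shock protein gene hspa1b (Hsp70) stood at 4718, 5729 and 7007 in p27 serum reduction, 672, 742 and 681 in starvation, 521, 358 and 343 in lipid loading and 7.56, 10.6 and 12 in proliferation. At p77 the serum reduction values were 6492, 6518 and 5956 and those of starvation 957, 899 and 826. Dnajb1b, an Hsp40 partner of Hsp70, behaved otherwise outside serum reduction: it stood at 2875, 3468 and 4327 in p27 serum reduction but at 733, 726 and 862 in proliferation, near the 666, 705 and 719 of starvation. The related dnajb4 stood at 200, 239 and 282 at p27 and was near 0 in proliferation, with 0, 0 and 5.

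The myosin chaperone unc45b stood at 66944, 80790 and 87769 in p27 serum reduction, 28663, 28709 and 31171 in starvation and 366, 400 and 377 in proliferation. Its partner in thick filament assembly, smyd1b, stood at 19020, 23107 and 27825, 8865, 8971 and 8626, and 673, 757 and 668 in the same groups. Dnaja, a DnaJ family gene, stood at 19951, 23166 and 27394 in p27 serum reduction against 4000, 3973 and 3562 in proliferation. Hspbp1, which acts on the nucleotide cycle of Hsp70, had a log2 ratio over starvation of 1.17 at p27 and 1.27 at p77. For zfand2a, a stress-inducible zinc finger gene, these ratios were 1.08 and 1.49.

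Other members have roles in lipids, lysosomes, amino acids and matrix. Tfeb, a transcription factor for lysosome genes, stood at 645, 728 and 821 in p27 serum reduction and 197, 161 and 216 in starvation, with no count in p27 proliferation. Mid1ip1l, a regulator of fatty acid synthesis in mammals, stood at 3718, 4443 and 4749 against 1249, 1158 and 998 in starvation at p27. Plin3, a lipid droplet coat gene, is in the set as well, at a mean of 1980 in p27 serum reduction and 534 in p27 lipid loading. The stress transcription factor atf5a stood at 675, 739 and 704, and the neutral amino acid transporter slc1a4 at 489, 649 and 777.

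Matrix genes were few and differed between the stages. Thbs2a, the secreted matricellular protein thrombospondin, stood at 9268, 7438 and 7247 in p27 serum reduction against 693, 546 and 676 in starvation, and at 5677, 6236 and 5713 against 3095, 2209 and 2049 at p77. Fndc1, a gene with fibronectin domains, stood at 1443, 1304 and 1102 in p27 serum reduction and 314, 247 and 252 in p77 serum reduction. Frem3, of a family of matrix proteins, went the other way, with means of 451 in p27 and 1060 in p77 serum reduction. In the fibroblast and tendon marker list 9 of 12 genes had a count in serum reduction, with tcf21, twist1a and thy1 at 0. Its summed level was nearly all col1a2 and col1a1a. This sum was 383000 to 449000 in p27 serum reduction and 95500 to 106000 in p27 starvation. At p77 it was 372000 to 387000 in serum reduction and 175000 to 249000 in starvation. It follows these collagens and does not show how the other markers of the list moved. The part of this list in the values of thbs2a, fndc1 and frem3 was not tested.

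The contrasts of starvation and of lipid loading with proliferation do not involve serum reduction. With edgeR's quasi-likelihood test and Benjamini-Hochberg adjustment over all 15683 genes of the fit, which all 100 members entered, 87 members were higher in p27 starvation than in proliferation, 3 were lower and 10 were not called, where 34.3% of all genes were called higher and 30% lower. At p77 the counts were 93 higher and 3 lower, against 35.5% and 31.5% of all genes. Lipid loading had 82 higher and 7 lower at p27 (34.3% and 30.4% of all genes) and 88 higher and 4 lower at p77 (35.2% and 30.6%). The median log2 fold change of the members was 5.23 and 3.86 at p27 and 6.86 and 6.71 at p77, against 0.079, 0.08, 0.063 and 0.066 over all genes, and with genes at their counting bound it was 4.84, 3.53, 5.91 and 5.40. Both states share the proliferating libraries of their stage, and the rule used the means of all 3 states, so these counts are not independent of the choice.

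The smallest adjusted p of a member that rose in starvation was that of unc45b, with a log2 fold change of 6.27 ± 0.14 (SE) at p27 (adjusted p = 4.41e-23) and 9.78 ± 0.17 at p77 (adjusted p = 2.01e-25). Coq8ab, a kinase-like gene needed for coenzyme Q synthesis, rose by 8.57 ± 0.21 at p27 and 10.83 ± 0.23 at p77 in starvation. Stbd1 had no count in proliferation and was at least 573-fold higher in p27 starvation and at least 922-fold higher in p77 starvation, counting a floor of 3 over the group. Hspa1b rose in starvation by 6.10 ± 0.26 at p27 and 8.14 ± 0.30 at p77, and dnajb1b did not pass, at −0.16 ± 0.17 (adjusted p = 0.44) and 0.37 ± 0.17 (adjusted p = 0.0589). In p27 lipid loading dnajb1b fell by 0.94 on the log2 scale (SE 0.18, adjusted p = 4.58e-05).

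LOC133985934, LOC133985910 and LOC133996193 fell in both states at both stages and were highest in serum reduction and next highest in proliferation. LOC133985934 stood at 254, 228 and 186 in p27 proliferation, 44, 38.4 and 57.1 in starvation, 96.5, 95.5 and 88.5 in lipid loading and 1345, 1378 and 1304 in serum reduction. Its log2 fold change in starvation was −2.25 ± 0.18 at p27 (adjusted p = 2.8e-11) and −2.60 ± 0.16 at p77 (adjusted p = 6.9e-14), and the groups did not overlap. LOC133985910, its direct neighbour, stood at 190, 118 and 146 in p27 proliferation, 42.4, 34.4 and 34.6 in starvation and 862, 785 and 956 in serum reduction. LOC133996193 stood at 5697, 4911 and 5379, 1944, 2213 and 1833, and 18993, 16354 and 15501 in the same groups, and its log2 fold change in starvation was −1.42 ± 0.11 at p27 and −1.45 ± 0.11 at p77.

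The stage comparison asked whether the set's level in a given state differed between p77 and p27. In serum reduction 45 members were higher at p77, 8 were lower and 47 were not called, against 14.7% and 16.1% of all genes, with a median log2 fold change of 0.45 against 0.022 over all genes. With limma-trend 25 were higher and 4 lower there. The share of all genes called by limma-trend is not given, so nothing about the members is read from that drop. In starvation 47 were higher and 4 lower (11.1% and 10.2% of all genes), and in lipid loading 69 were higher and 6 lower (18.6% and 15.7%). In proliferation 7 were higher and 18 lower (10.5% and 15.1%), and 75 were not called, many of them at a few counts. Several of the 75, such as stbd1, asb14b and bcl2l16, had no count in either group. They entered the test through other states and could not be called, so nothing about the members is read from the proliferation counts. Marker sums moved with the stage too. Muscle lineage markers stood at 21000 to 23700 in p27 and 51700 to 59600 in p77 lipid loading, and at 98900 to 124000 and 177000 to 180000 in serum reduction. Most of this sum was desma and cdh15, and myog and myod1 were higher at p77 in both states too. Pax3b was lower, with means of 2820 and 1940 in lipid loading and 1250 and 1040 in serum reduction. Pax7a had means of 12.9 and 9.22 in these states at p27 and 0 at p77. In starvation the muscle lineage sum stood at 106000 to 113000 at p27 and 129000 to 137000 at p77, and desma was higher at p77. Myod1 and myog went the other way there. Myod1 stood at 1500 to 1540 in p27 and 1120 to 1270 in p77 starvation, and myog at 9020 to 9300 and 3970 to 8760. Cdh15 overlapped between the stages in starvation. Smooth muscle markers, of which 8 are in the table and 6 to 8 had a count, stood at 57000 to 61500 in p27 and 10700 to 12300 in p77 lipid loading, and at 30300 to 35700 and 9290 to 10300 in serum reduction. Most of that sum was tagln. Other sums differed in lipid loading as well. Fibroblast and tendon markers, nearly all col1a2 and col1a1a, stood at 536000 to 551000 at p27 and 372000 to 421000 at p77, and overlapped between the stages in serum reduction. Cartilage and bone markers stood at 577 to 683 and 1220 to 1350, with alpl at means of 23.0 and 585. Epithelium, mostly krt18a.1, stood at 1280 to 1500 and 362 to 475. The part of these markers in the members' changes was not tested. The rule asked for a high ratio at both stages and did not use the difference between them. It did use the means of every state at both stages, so the stage counts are not independent of the choice. With single libraries left out, the higher calls in serum reduction ranged from 34 to 45, so the main count of 45 is the top of that range. The lower calls in proliferation ranged from 13 to 22. The shares of all genes called in those fits are not given. The 8 lower in serum reduction became 3 without p27 serum reduction replicate 2 or p77 serum reduction replicate 1 and 4 without p27 serum reduction replicate 3 or p77 serum reduction replicate 2 or 3, and the 4 lower in starvation became 2 without p27 starvation replicate 1 or replicate 2.

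**Figure D4:**
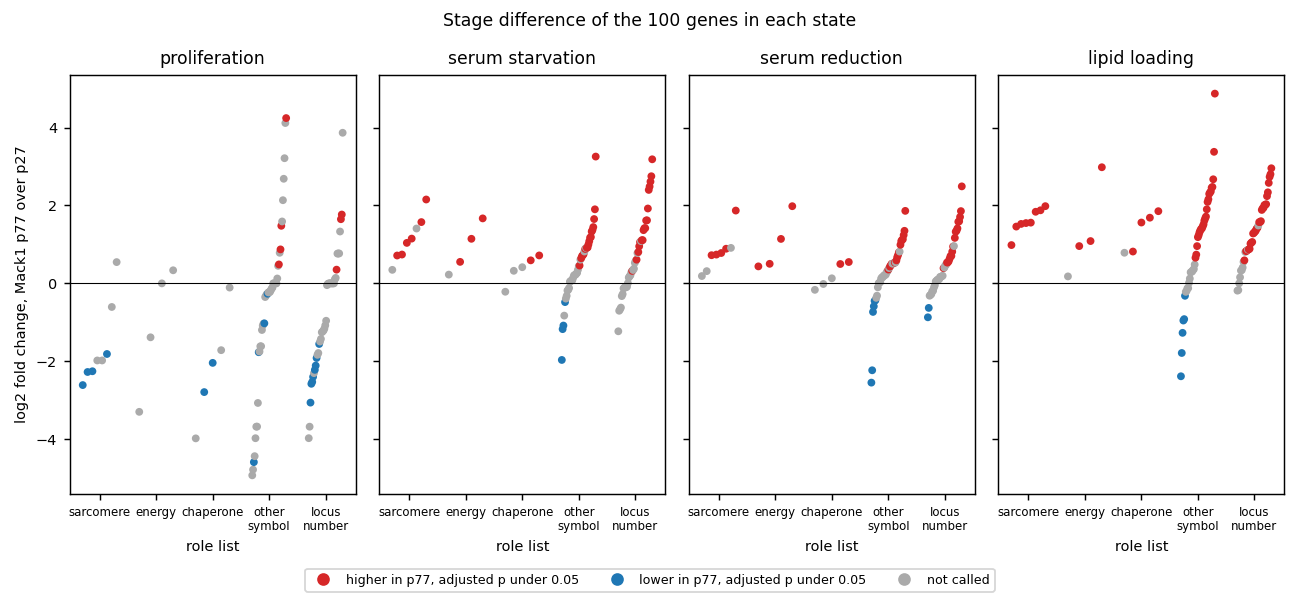
Log2 fold change of p77 over p27 for the 100 genes in each Mack1 state, in columns for the sarcomere, energy and chaperone lists, other genes with a symbol and genes with a locus number alone. Red and blue mark genes past an adjusted p of 0.05. In lipid loading all 8 sarcomere genes were higher at p77, as were 69 of the 100 genes, while in proliferation the points lie mostly below 0. Genes with no count at either stage in proliferation, such as stbd1, lie at 0 there.

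Of the 8 sarcomere members 5 were higher at p77 than at p27 in serum reduction, myom2a by a log2 fold change of 1.87 ± 0.14 (adjusted p = 8.59e-11), myom1a by 0.74 ± 0.13, xirp2a by 0.72 ± 0.14, pdlim5a by 0.89 ± 0.17 and tnnc2.2 by 0.78 ± 0.23 (adjusted p = 0.0113, and 0.0882 without p27 serum reduction replicate 1). With limma-trend 3 of these calls were lost, those of myom1a (adjusted p = 0.0592), xirp2a (0.0944) and tnnc2.2 (0.252). Actn3b, at 0.31 ± 0.13, did not pass (adjusted p = 0.078), nor did synpo2la, at 0.91 ± 0.36 (adjusted p = 0.0569), or tnni3k, at 0.19 ± 0.32. Synpo2la passed without p27 serum reduction replicate 3 (adjusted p = 0.0458), with DESeq2 (0.0374), with no filter on low counts (0.0315) and in a fit of these groups alone (0.000918). In lipid loading all 8 were higher at p77, and in proliferation 4 were lower. Over the whole set 45 of 100 were higher in serum reduction, 69 were higher in lipid loading and 18 were lower in proliferation. Of all genes these shares were 14.7%, 18.6% and 15.1%.

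All 4 energy members were higher at p77 in serum reduction, as were 45 of the 100 members and 14.7% of all genes. Pfkma rose by 1.98 ± 0.13 (adjusted p = 7.1e-12) and pfkmb by 1.14 ± 0.19 (adjusted p = 5.01e-05). Stbd1 rose by 0.50 ± 0.13 (adjusted p = 0.00599, and 0.0564 without p27 serum reduction replicate 1). Adss1 rose by 0.44 ± 0.16 (adjusted p = 0.0436), and this call was lost without p27 serum reduction replicate 1 or 2 or without any single p77 serum reduction library, with adjusted p from 0.0743 to 0.226, and with limma-trend (0.597). Casq1b rose by 1.12 ± 0.11 in serum reduction and by 0.72 ± 0.12 in starvation.

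The myosin chaperones rose modestly at p77 in serum reduction, unc45b by 0.55 ± 0.11 (adjusted p = 0.000243) and smyd1b by 0.50 ± 0.10 (adjusted p = 0.000465). None of hspa1b, dnajb1b and dnajb4 was called there, at 0.13 ± 0.14, −0.17 ± 0.16 and −0.02 ± 0.34, with adjusted p of 0.538, 0.482 and 0.983. The serum reduction libraries of the stages overlapped for each of these 3 genes. In lipid loading hspa1b rose by 1.56 ± 0.16 (adjusted p = 8.35e-09) and dnajb1b by 0.82 ± 0.18. Dnaja, hspbp1 and zfand2a were also not called between the stages in serum reduction, at −0.10 ± 0.09, 0.02 ± 0.12 and 0.29 ± 0.15.

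A few members fell between the stages in serum reduction. Prss35 fell by 2.55 (SE 0.33, adjusted p = 1.32e-06) and fndc1 by 2.23 (SE 0.29, adjusted p = 1.17e-06), and in neither did the libraries overlap. Thbs2a fell by 0.43 (SE 0.12, adjusted p = 0.00573), a call lost without p27 serum reduction replicate 1 (adjusted p = 0.072), although it was higher at p77 in each other state, by 1.48 ± 0.17 in proliferation, 1.90 ± 0.13 in starvation and 2.48 ± 0.13 in lipid loading. The difference between these changes was not tested. Slc1a4 was lower at p77 in all 4 states, by 4.59 in proliferation (SE 0.33) and by 0.59 in serum reduction (SE 0.22, adjusted p = 0.0399). Atf5a fell by 0.45 in serum reduction (SE 0.14, adjusted p = 0.0182), a call lost without p27 serum reduction replicate 2 (adjusted p = 0.0668) or p77 serum reduction replicate 1 (adjusted p = 0.0954).

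Among members with a locus number, LOC133999614 rose at p77 by 2.49 ± 0.23 in serum reduction (adjusted p = 2.37e-09) and 2.49 ± 0.26 in starvation, and in proliferation it was not called, at −0.01 ± 0.44. LOC133982361 rose by 1.71 ± 0.28 in serum reduction, from 116781, 138356 and 162134 to 462666, 430080 and 458301. LOC134002507 did not pass in serum reduction, at −0.28 ± 0.33 (adjusted p = 0.572), with 239164, 289034 and 337890 at p27 and 249298, 227497 and 233697 at p77.

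Mack2 libraries were not used to choose the genes. In proliferating Mack2 cells the 100 genes held 0.896 to 0.958% of the counts at p2 and 0.259 to 0.278% at p180. Of the 91 members that passed the low-count filter of the Mack2 fit, 85 were lower at p180 than at p2, 3 were higher and 3 were not called, where 39.1% of all 13805 genes tested were lower and 38.6% higher (edgeR's quasi-likelihood test, Benjamini-Hochberg adjusted). The median log2 fold change of the members was −2.30 against 0.007 over all genes. The 9 members that did not pass the filter, among them fndc1, frem3 and synpo2la, had low counts in both groups. Replicate 4 of p2 carries batch label 1 and the other Mack2 libraries batch label 2, and without that library 85 members were lower and 3 higher. Most marker sums were lower at p180 as well, while those of blood and immune and of fat cell markers overlapped between p2 and p180. Blood and immune markers had medians of 269 at p2 and 369 at p180. Smooth muscle stood at 273000 to 297000 at p2 and 82500 to 87000 at p180. Epithelium stood at 27900 to 30000 and 9680 to 10400 (4 and 3 of its 5 markers in the table had a count). Most of the epithelium sum was krt18a.1, so it does not show how the other markers of that list moved. Muscle lineage stood at 67300 to 70100 and 50500 to 53900, and myog alone at 3910 to 4690 and 1400 to 1570. Most of the muscle lineage sum was desma and cdh15, both lower at p180. In the same list pax7a and myod1 went the other way. Pax7a stood at 113 to 166 at p2 and 790 to 863 at p180. Myod1 stood at 1030 to 1110 at p2 and 2260 to 2620 at p180. The part of all these markers in the members' fall was not tested.

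**Figure D5:**
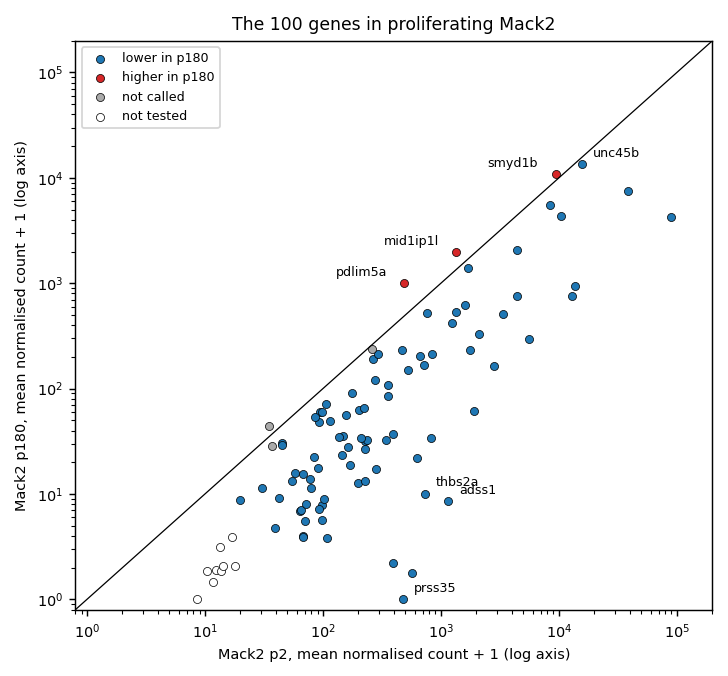
Mean normalised count plus 1 of the 100 genes in Mack2 p2 (x) and p180 (y), both on log axes, with the line of equal values and colours for the call (4 libraries per group). Most points lie below the line, smyd1b, mid1ip1l and pdlim5a lie above it, and prss35 had no count at p180.

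Prss35 was at 529, 319, 552 and 504 in Mack2 p2 and at 0 in all 4 p180 libraries, at least 561-fold lower with a floor of 3 counts over the group. Actn3b stood at 12082, 13438, 13051 and 12626 at p2 and 828, 719, 779 and 722 at p180, a log2 fold change of −4.01 ± 0.05 (adjusted p = 7.26e-18). Adss1 stood at 1125, 1203, 1159 and 1119 at p2 and 16.5, 3.73, 7.31 and 2.76 at p180 (−7.24 ± 0.16, adjusted p = 2.69e-15). In each of these the groups lay far apart.

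Thbs2a went from 712, 673, 832 and 698 to 8.88, 11.2, 6.1 and 10.1 (−6.23 ± 0.14, adjusted p = 2.92e-15). The summed fibroblast and tendon markers went from 317000 to 353000 at p2 down to 118000 to 124000 at p180. Nearly all of this sum was col1a2 and col1a1a, so it does not show how the other markers of the list moved. The part of this sum in the fall of thbs2a was not tested. Of the chaperones, hspa1b stood at 594, 749, 682 and 630 at p2 and 179, 211, 195 and 218 at p180 (−1.65 ± 0.09), and unc45b at 15019, 16205, 15808 and 15607 against 13546, 13877, 13320 and 13573 (−0.14 ± 0.03, adjusted p = 0.000756). Dnajb4 fell from 89.3, 101, 127 and 72.5 to 6.34, 3.73, 11 and 6.44 (−3.72 ± 0.28, adjusted p = 6.65e-09), and dnajb1b by 0.21 (SE 0.06, adjusted p = 0.00461). Smyd1b was among the 3 that were higher at p180 and stood at 9313, 9519, 9838 and 9229 at p2 and 10844, 11309, 10397 and 10641 at p180 (0.25 ± 0.04, adjusted p = 7.78e-06). Pdlim5a stood at 485, 526, 473 and 472 against 1116, 1015, 984 and 881 (1.09 ± 0.07, adjusted p = 1.11e-09), and mid1ip1l was higher by 0.61 ± 0.04 (adjusted p = 1.34e-09). Not called were LOC134005967, plin3 and tnni3k.

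The stage change in proliferation was compared between the lines with an interaction term in a fit of the 14 proliferating libraries. Of 94 members tested, 43 had a lower change in Mack2 than in Mack1, 6 a higher one and 45 were not called, against 25.2% and 31.3% of all 14706 genes. Some of those not called, among them prss35, stbd1 and bcl2l16, had no count in Mack1 p77 proliferation. Their difference could not be estimated, with an SE of 13205 for prss35, so it is not shown to be absent. The 6 members with a higher change became 10 without Mack1 p77 proliferation replicate 2. Smyd1b had a difference of 2.31 ± 0.08 (adjusted p = 1.82e-15) and unc45b of 2.66 ± 0.12 (adjusted p = 9.83e-14), both lower at p77 than p27 in Mack1, by 2.04 (SE 0.12) and 2.79 (SE 0.15). Thbs2a differed by −7.69 ± 0.24 (adjusted p = 2.17e-16). All Mack1 libraries carry batch label 1 and 7 of 8 Mack2 libraries batch label 2, so line and batch cannot be told apart in levels, and the stages compared are not the same passages.

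The wider pathways of the members were followed with lists written from general knowledge, counting only genes that are not members, in serum reduction against starvation. There 19.9% of all genes were higher and 17.9% lower at p27, and 15.5% and 14.4% at p77, with medians of −0.004 and 0. The rule ranked genes on this contrast among others, so the same values decided which genes of a list are not members. Genes just outside the border are counted here. The list counts and p-values in this and the following paragraphs on lists are thus not independent of the choice, and nothing about the members is read from them. Energy genes of muscle had 27 of 40 higher and 3 lower at p27, and 26 higher and 2 lower at p77, with medians of 0.63 and 0.94. Eno3, the muscle enolase, stood at a mean of 4160 in p27 serum reduction and 499 in starvation (log2 fold change 3.01 ± 0.22, adjusted p = 3.41e-11), and pygma, the muscle glycogen phosphorylase, at 4390 and 574 at p77 (2.93 ± 0.17, adjusted p = 3.67e-12).

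Thin filament and Z-disc genes had 29 of 49 higher and 7 lower at p27, and 25 higher and 7 lower at p77. Lmod2b, a leiomodin that lengthens thin filaments, was higher by 2.77 ± 0.20 at p27, while the cardiac-type actin actc1a was lower, at a mean of 28300 against 115000 (−2.07 ± 0.11, adjusted p = 3.04e-14). Thick filament genes had 10 of 24 higher at each stage and 2 lower at p27, mybpha (−1.50 ± 0.14) and mylpfb (−0.54 ± 0.15). Those higher included mybpc2b by 1.74 ± 0.27 at p27 and 3.67 ± 0.25 at p77. Calcium and membrane genes had 11 of 34 higher and 6 lower at p27 and 12 higher and 3 lower at p77.

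Heat shock and chaperone genes had 19 of 40 higher and 2 lower at p27, and 24 higher and 2 lower at p77. Hspb1, a small heat shock protein, was higher by 1.83 ± 0.14 at p27 and 1.82 ± 0.14 at p77, and serpinh1b, the collagen chaperone, by 2.25 ± 0.08 and 1.22 ± 0.08. Unc45a, the general form of the myosin chaperone, was lower, by 0.38 (SE 0.10) at p27 and 0.51 (SE 0.10) at p77.

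In the list of myogenic regulators and fusion, 6 of 43 were higher and 17 lower at p27, and 7 higher and 10 lower at p77. Myod1, the determination factor, stood at a mean of 724 in p27 serum reduction and 1520 in starvation (−1.11 ± 0.09, adjusted p = 5.92e-11). Of 61 cell division genes, 48 were lower at p27 and 23 at p77. Sterol synthesis genes had 1 of 31 higher and 16 lower at p27 but 14 higher and 4 lower at p77, with medians of −0.44 and 0.44, and the difference between the stages was not tested. Matrix genes had 37 of 69 higher and 17 lower at p27 and 20 higher and 25 lower at p77, beside the collagen levels given above. Fatty acid oxidation had 16 of 40 higher and 8 lower at p27 and 10 and 6 at p77, the neuromuscular junction 5 of 26 higher and 3 lower and then 5 and 1, and the stress and serum response list 21 of 68 higher and 22 lower and then 25 and 19.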

How the data were processed

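Poly(A) RNA libraries, not strand-specific, were sequenced as paired 150 nt reads, per the labels' protocols. The authors deposited raw counts per gene and a normalised signal, which from its values is the raw count divided by 1 factor per library. Tools listed in the submitters' processing notes, without roles, are DESeq2, Salmon 1.10.1, STAR and FastQC. Nothing states the genome build, the annotation or the handling of reads that fit several genes. Symbols and gene order come from the RefSeq gene table of fScoSco1.1, which matched all 100 members.

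Members were ranked on the deposited normalised signal. Tests of the raw counts used edgeR 4.0.16 under R 4.3.3, with TMM scaling after filterByExpr on the groups, then glmQLFit and glmQLFTest, two-sided, adjusted over all genes tested by Benjamini-Hochberg at 0.05. One fit held the 24 Mack1 libraries, one the 8 Mack2 libraries and one the 14 proliferating libraries. Members and lists were chosen with earlier results of these data known. Genes named are ranks 1 to 12, ranks 96 to 105, the 4 best-ranked members of each list, the 3 smallest p in each direction of each contrast and up to 2 other genes per list; frem3, me1, mid1ip1l, plin3, slc1a4, dnaja, hspbp1, zfand2a, unc45a, LOC133982361, LOC133977916 and LOC134002507 and neighbouring genes were named where their values stood out or another result rests on them. Where all libraries of a group were at 0, folds are bounds that put that group at 3 counts in total, covering counting error only. Alternatives were DESeq2 1.42.0, RLE factors, limma-trend (limma 3.58.1), other filters, a replicate block, a fit of just the groups compared, and leaving out single libraries. The procedure was tested on simulated data. Plots were drawn with matplotlib 3.10.9. One member's values are not reported here.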

Additional observations from a re-analysis of the deposited data

Results flagged for a closer look

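The stage change in proliferation differed between the lines, by the test of the difference itself, downward in 43 of 94 members tested and upward in 6. Of all 14706 genes, 25.2% differed downward and 31.3% upward. The 3 members with the smallest p in each direction are given here. The log2 stage change in Mack2 minus that in Mack1 was 2.31 for smyd1b, 2.66 for unc45b and 3.11 for slc1a4, the last being lower after immortalization in both lines, by 1.49 (SE 0.07) in Mack2 and 4.59 (SE 0.33) in Mack1. It was −7.69 for thbs2a, which fell in Mack2 and rose in Mack1. It was −1.54 for LOC133996193 and −2.95 for LOC133985934, which also fell in Mack2 and rose in Mack1. Line and batch label nearly coincide, and their parts cannot be told apart.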

How the results depend on the processing

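The choice of genes kept 94 of 100 with TMM-scaled counts, 96 with a pseudocount of 10, 84 with a minimum mean of 50, 77 with 200, 90 with group medians, 83 with the lowest serum reduction library set against the highest other library, and 94 to 100 with each library left out.

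Counts of members called stayed within 1.5 times, except that limma-trend gave 25 higher and 4 lower for the stage difference in serum reduction (45 and 8 in the main test), and the compared groups alone gave 2 lower in starvation (4). The shares of all genes called under these alternatives are not given. With each library left out, the lower calls ranged from 3 to 6 in serum reduction and 2 to 5 in starvation, and the higher calls of the difference between the lines from 6 to 10. The higher calls between the stages ranged from 34 to 45 in serum reduction and 39 to 49 in starvation, and the lower calls in proliferation from 13 to 22. Of 1474 alternative values for 108 named results, 1439 kept their direction and side of the threshold, 31 lost the call, 4 gained it and none reversed. LOC133999614 in Mack2 (−0.51, adjusted p = 0.0291) lost its call with DESeq2 (adjusted p = 0.0618), when unfiltered (0.061), and in 5 fits that left out a single library (0.0557 to 0.0899). Strip2, lower in p77 starvation, lost its call with the compared groups alone (adjusted p = 0.169) and without p27 starvation replicate 1 (0.0992) or 2 (0.0573) or p77 starvation replicate 1 (0.0854) or 3 (0.0829). With limma-trend the stage calls of zgc:113276, tfeb, xirp2a, adss1, tnnc2.2 and myom1a in serum reduction were lost (adjusted p from 0.0503 to 0.597). Causes were not tested.

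Same-numbered replicates did not pair, since correlations of their deviations ran from −0.128 to 0.109. With the replicate number as a block, 44 members were higher and 7 lower between the stages in serum reduction and 84 lower in Mack2; adss1 (adjusted p = 0.0591) and LOC133999614 in Mack2 (0.0586) lost their calls. RLE factors moved the median of all genes by at most 0.1, in the difference between the lines. With DESeq2 the lists kept their counts except for 1 thick filament gene lower (2), 2 sterol genes higher (1) and 1 cell division gene higher at p27. Low counts in proliferation and shared reads between near copies limit the fold changes there.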
